A study of Mus musculus with 4 samples.

Results

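The vascular endothelial growth factor (VEGF) and angiopoietin genes were examined in mouse brown adipocytes with and without knockdown of Blnc1, a long RNA of brown fat that codes for no protein. All groups were brown adipocytes taken on day 6 of differentiation. They carried either a Scramble short hairpin RNA (shRNA), the control, or an shRNA against Blnc1, with 2 arrays each, labelled as biological replicates. The labels do not say whether the replicates were separate cultures. The p-values rest on the spread between these arrays, pooled in part over all probe sets. That spread may therefore be partly technical. Affymetrix 3' expression arrays received material made from 250 ng of total RNA each. The members were all probe sets that the platform annotation pairs with exactly 1 symbol among Vegfa, Vegfb, Vegfc, Pgf, Kdr, Flt1, Nrp1, Nrp2, Tek and Angpt1. This gave 16 probe sets of 10 genes, out of 45037 probe sets in all. A probe set is a group of short probes read as 1 value, and 4 of the 10 genes have more than 1.

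VEGF ligands are secreted proteins that bind tyrosine kinase receptors, chiefly on the endothelial cells that line vessels, and drive vessel growth and leakiness. Vegfa acts through the receptors encoded by Kdr and Flt1, Vegfb and Pgf bind the Flt1 product, and Vegfc acts mainly on lymphatic vessels. The neuropilins, encoded by Nrp1 and Nrp2, are co-receptors that bind both VEGF and class 3 semaphorins. Tek encodes Tie2, the receptor of the angiopoietins, and Angpt1 encodes its main activating ligand. Brown fat is densely supplied with vessels, and brown fat cells are a known source of VEGF-A.

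The ligand genes Vegfa and Vegfc went in opposite directions, Vegfc being 2.37-fold higher and Vegfa 1.63-fold lower on the knockdown arrays by 1 of its 2 probe sets. Of the receptor genes, Nrp2 was 1.69-fold lower by 1 of its 2 probe sets and Tek was 1.59-fold higher. In limma fitted over all 45037 probe sets, with Benjamini-Hochberg adjustment and a threshold of 0.05, 2 of the 16 member probe sets were called higher, 2 were called lower and 12 were not called. The background was 14.1% of all probe sets called, 8.73% higher and 5.38% lower. The median log2 fold change of the 16 was 0.04, against -0.05 for all probe sets. The 2 groups did not overlap for 11 of the 16, and for 58.9% of all probe sets. Over all probe sets, 3933 were higher and 2423 lower, or 4771 and 1634 after each array was centred on its median and 3251 and 2871 after quantile normalization.

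For 3 of the genes with a called probe set, the 250 bases before the RefSeq transcript start are shown, so that the control regions of a ligand and co-receptor that fell and of a ligand that rose can be set side by side (mouse GRCm38.p6, 5′ to 3′). Vegfa lies at chr17:46032378-46032627 on the minus strand, Vegfc at chr8:54077282-54077531 on the plus strand, and Nrp2 at chr1:62703067-62703316 on the plus strand. Capitals mark GC boxes, searched as GGGCGG on both strands, which bind factors of the Sp1 family.
Vegfa: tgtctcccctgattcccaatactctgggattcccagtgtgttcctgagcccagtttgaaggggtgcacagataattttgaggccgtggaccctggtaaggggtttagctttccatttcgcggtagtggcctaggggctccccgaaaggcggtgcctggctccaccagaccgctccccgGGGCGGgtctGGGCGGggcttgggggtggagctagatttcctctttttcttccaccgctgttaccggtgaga
Vegfc: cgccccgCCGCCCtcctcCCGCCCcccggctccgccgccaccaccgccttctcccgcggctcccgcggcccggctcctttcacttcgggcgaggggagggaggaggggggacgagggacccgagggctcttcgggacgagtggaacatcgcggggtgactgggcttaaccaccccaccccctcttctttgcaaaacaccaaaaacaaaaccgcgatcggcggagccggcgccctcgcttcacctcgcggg
Nrp2: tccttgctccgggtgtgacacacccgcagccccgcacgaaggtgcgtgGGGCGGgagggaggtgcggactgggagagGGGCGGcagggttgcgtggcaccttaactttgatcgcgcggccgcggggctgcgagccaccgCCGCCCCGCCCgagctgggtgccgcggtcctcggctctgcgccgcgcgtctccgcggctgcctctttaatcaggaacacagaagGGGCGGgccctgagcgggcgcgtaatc
Vegfa and Vegfc each hold 2 GC boxes in these windows and Nrp2 holds 5, of which a pair overlaps. The G and C content was 59.2% for Vegfa, 71.6% for Vegfc and 72.4% for Nrp2, against a median of 52.4% over the 32851 windows of the table. The window of Tek, the fourth gene with a called probe set, held no GC box and had a G and C content of 51.2%. RefSeq windows matched 9 of the 10 genes, with 11 windows in all, since Vegfa and Pgf have a second one. A GC box was found in 9 of these 11 windows, both of Vegfa among them, and in 32.7% of all windows. All member windows but that of Tek had a G and C content above the median, from 59.2% to 76.4%. The share was not compared with that of windows of like G and C content. ACGTG, the core that hypoxia-inducible factors bind, searched on both strands, was in 1 of the 11 and in 16.6% of all windows. The 1 was the second window of Vegfa, at chr17:46025164-46025413 on the minus strand. That window lies downstream of the Vegfa start shown above, so the match is not in the region before that start. AAGGTCA, the short site of oestrogen-related receptors, was in 1 of the 11, that of Nrp1, and in 4.08% of all. The windows of Vegfa, Nrp2 and Vegfc shown above hold neither ACGTG nor AAGGTCA, which says only that these letters are not in those 250 bases.

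**Figure D1:**
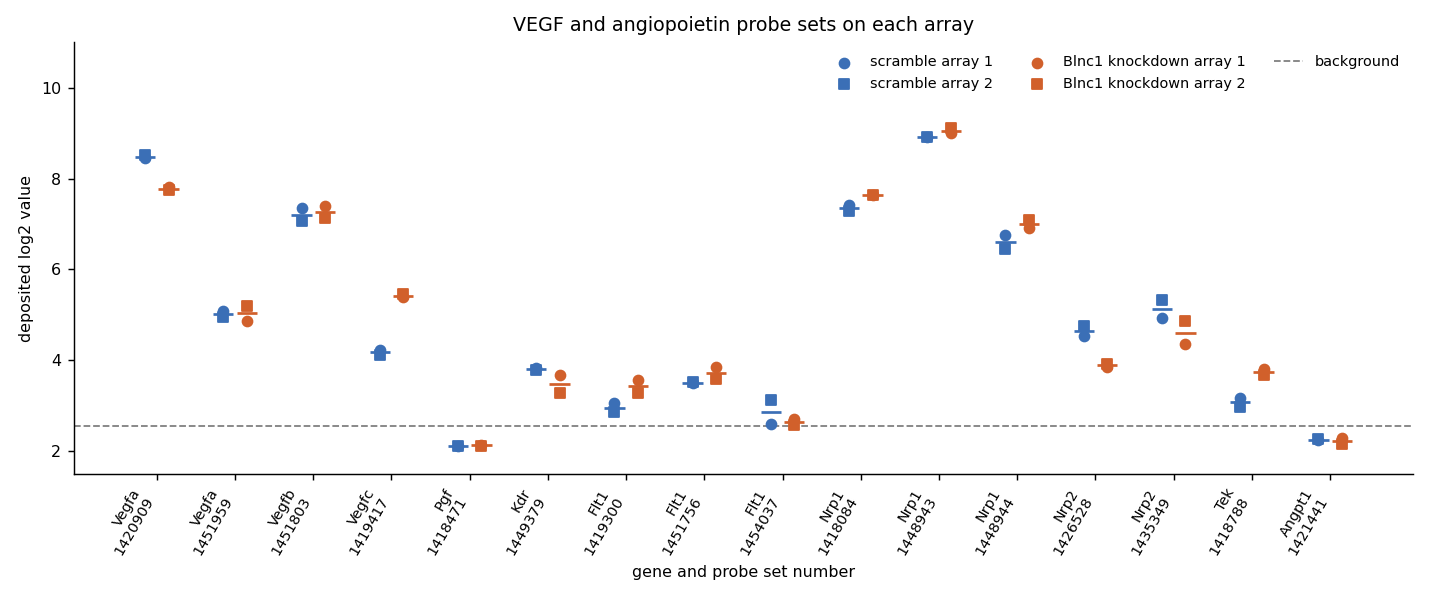
Deposited log2 values (y axis) of the 16 member probe sets (x axis) on the 2 scramble arrays (blue) and the 2 Blnc1 knockdown arrays (orange). Circles and squares are replicates 1 and 2, bars are group means, and the dashed line is the background value of 2.55. The groups stand apart most for Vegfc, while Pgf and Angpt1 lie below the line on every array.

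The background log2 value, 2.55, is the highest reading of the antigenomic control probe sets with 3 to 24 G or C bases, which match no mouse sequence. Controls with 25 G or C bases were left out and read up to 5.66. That is above every reading of Vegfc, Nrp2 and Tek. Of the 16 member probe sets, 14 read above it on all 4 arrays, and those of Pgf and Angpt1 read below it on all 4. The median over all probe sets of an array was 2.98 for each scramble array, 2.92 for knockdown replicate 1 and 2.91 for replicate 2. Signs of RNA quality differed between scramble and knockdown. For Actb, the 3' control probe set exceeded the 5' one by 0.99 and 1.15 log2 units in scramble and by 1.77 and 1.88 in knockdown. For Gapdh the excess was 0.09 and 0.04 against 0.34 and 0.40. The 18S ribosomal RNA control read log2 values of 5.13 and 4.43 in scramble and 6.64 and 7.01 in knockdown. The hepatocyte marker Alb read 6.28 and 5.70 in scramble and 4.43 and 2.50 in knockdown. The part of these differences in the results on the members was not tested. The fat cell marker Adipoq read between 11.75 and 11.86 on all arrays. Fabp4, another, read 12.26 to 12.36 by its brightest probe set, while a dimmer one was 1.62-fold lower in knockdown (limma adjusted p = 0.00977). The brown fat marker Ucp1 read 7.51 and 7.73 in scramble and 5.53 and 5.98 in knockdown. In bulk RNA of this kind, fewer cells of a type and less RNA per cell cannot be told apart.

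Vegfc (Entrez Gene 22341) encodes the ligand known for lymphatic vessel growth. Its probe set, 1419417_PM_at, read log2 values of 4.23 and 4.11 in scramble and 5.39 and 5.45 in knockdown. Both knockdown values lay more than 1 log2 unit above the higher scramble value. The group means were 4.17 ± 0.08 and 5.42 ± 0.04 (SD, n = 2), a log2 fold change of 1.25 with a standard error of 0.10 and a 95% interval of 1.00 to 1.49 (limma adjusted p = 0.00111). It was called under all 12 alternatives, with log2 fold changes of 1.13 to 1.31 and adjusted p-values of 2.53e-05 to 0.0115.

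Vegfa (Entrez Gene 22339) encodes VEGF-A, the main growth factor for blood vessel endothelium. Its brighter probe set, 1420909_PM_at, read log2 values of 8.45 and 8.52 in scramble and 7.81 and 7.74 in knockdown, with no overlap. The means were 8.48 ± 0.05 and 7.78 ± 0.05 (SD, n = 2), a log2 fold change of -0.71 (95% interval -0.94 to -0.47, limma adjusted p = 0.00648). The dimmer one, 1451959_PM_a_at, a type of probe set that reads several splice forms of 1 gene, read 5.10 and 4.96 in scramble and 4.88 and 5.19 in knockdown. Here the groups overlapped, with a log2 fold change of 0.01 (95% interval -0.31 to 0.33, limma adjusted p = 0.973). The 2 probe sets thus gave different values for the same gene, and the difference between them was not tested. With their mean the log2 fold change of Vegfa was -0.35 (adjusted p = 0.0396), and without knockdown replicate 2 the brighter probe set had a limma adjusted p of 0.0588 at -0.67.

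The other ligands were not called. Vegfb, a ligand of the Flt1 receptor that is abundant in oxidative tissues, read log2 values of 7.34 and 7.07 in scramble and 7.41 and 7.13 in knockdown. The groups overlapped, and the log2 fold change was 0.06 (95% interval -0.28 to 0.40, limma adjusted p = 0.817). Pgf, which encodes placental growth factor, read 2.11 and 2.12 in scramble and 2.15 and 2.11 in knockdown. Angpt1 read 2.24 and 2.27 in scramble and 2.28 and 2.17 in knockdown. Both genes were at background in both groups, so no difference could be measured with these probe sets.

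**Figure D2:**
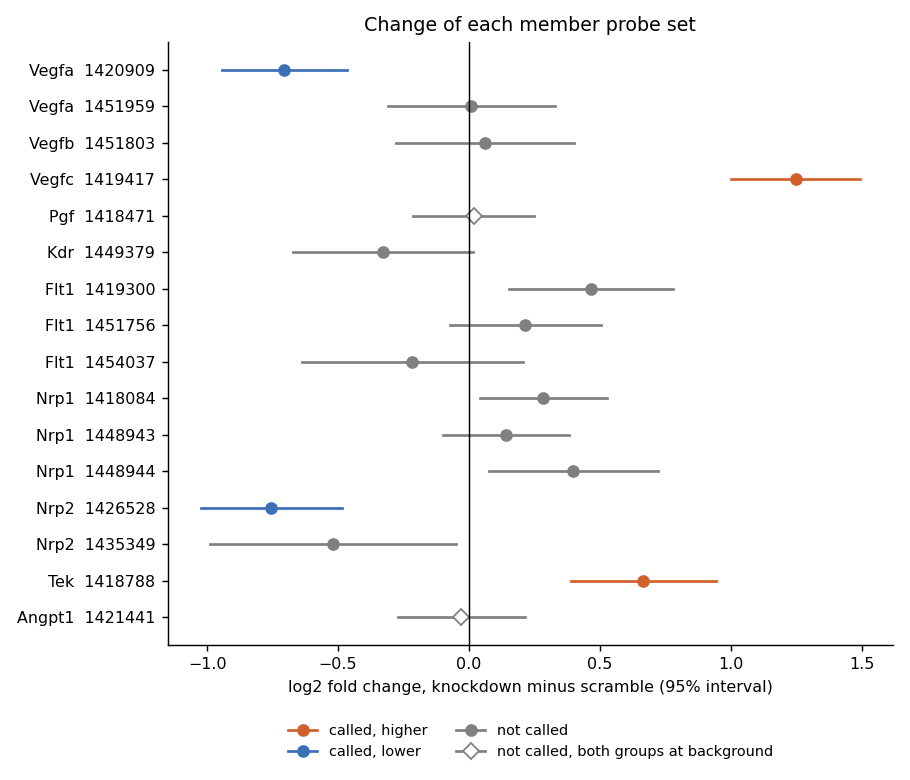
Log2 fold change, knockdown minus scramble (x axis), of each member probe set (y axis), with the 95% interval of the limma fit. Orange and blue mark the 2 probe sets called higher and the 2 called lower, grey those not called, and open diamonds those at background in both groups. Vegfc lies at 1.25, and the pairs of Vegfa and Nrp2 show how far probe sets of 1 gene differ.

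Among the receptor tyrosine kinases, Tek (Entrez Gene 21687), the Tie2 gene, read log2 values of 3.18 and 2.97 in scramble and 3.80 and 3.68 in knockdown. Both knockdown arrays were above both scramble arrays, although all 4 values were low on this scale. The means were 3.08 ± 0.15 and 3.74 ± 0.09 (SD, n = 2), a log2 fold change of 0.67 with a 95% interval of 0.39 to 0.94 (limma adjusted p = 0.0127). The adjusted p was 0.0873 without knockdown replicate 1 and 0.059 without knockdown replicate 2.

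Kdr, which encodes VEGF receptor 2, the main signalling receptor for VEGF-A, read log2 values of 3.84 and 3.78 in scramble and 3.68 and 3.28 in knockdown. The groups did not overlap, but the knockdown arrays differed by more than the gap between the groups. The log2 fold change was -0.33 (95% interval -0.67 to 0.01, limma adjusted p = 0.182), and was -0.53 without knockdown replicate 1 and -0.13 without knockdown replicate 2. Flt1, which encodes VEGF receptor 1 and a soluble form that traps ligand, has 3 probe sets, of which none was called. The first, 1419300_PM_at, read 3.05 and 2.87 in scramble and 3.56 and 3.29 in knockdown, a log2 fold change of 0.47 (95% interval 0.15 to 0.78, limma adjusted p = 0.0616). That value was close to the threshold, and over the 10 alternatives for this probe set its adjusted p ran from 0.0329, with the replicate number as a block, to 0.301, without knockdown replicate 1. The second, 1451756_PM_at, went from 3.50 and 3.52 in scramble to 3.86 and 3.59 in knockdown, 0.21 on the log2 scale (limma adjusted p = 0.286), and the difference was 0.08 without knockdown replicate 1 and 0.35 without knockdown replicate 2. The third, 1454037_PM_a_at, read 2.59 and 3.13 in scramble and 2.71 and 2.57 in knockdown, barely above background, and its change was -0.22 (95% interval -0.64 to 0.20, limma adjusted p = 0.466), or -0.48 without scramble replicate 1. The 3 probe sets of Flt1 therefore did not share a sign.

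The neuropilin genes gave opposite signs. Nrp2 (Entrez Gene 18187), a co-receptor for VEGF-C and class 3 semaphorins, read log2 values of 4.54 and 4.75 in scramble and 3.86 and 3.92 in knockdown at probe set 1426528_PM_at. Both knockdown arrays were lower, with means of 4.64 ± 0.15 and 3.89 ± 0.04 (SD, n = 2) and a log2 fold change of -0.76 (95% interval -1.02 to -0.49, limma adjusted p = 0.00753). The brighter probe set of Nrp2, 1435349_PM_at, read 4.93 and 5.34 in scramble and 4.37 and 4.86 in knockdown. Its groups did not overlap, but replicates within each group stood further apart than at the other probe set, and the log2 fold change of -0.52 was not called (95% interval -0.99 to -0.05, limma adjusted p = 0.133). Without knockdown replicate 1 it was -0.27 and without scramble replicate 2 it was -0.31, and with the replicate number as a block it was called (limma adjusted p = 0.0233). With the mean of both, Nrp2 was at -0.64 on the log2 scale (limma adjusted p = 0.03), and without knockdown replicate 1 the probe set 1426528_PM_at had an adjusted p of 0.0524.

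Nrp1 (Entrez Gene 18186), a co-receptor for VEGF-A, has 3 probe sets that were all above background and all had a positive log2 fold change, with no overlap between the groups, but none was called. The brightest, 1448943_PM_at, read log2 values of 8.91 and 8.91 in scramble and 9.00 and 9.10 in knockdown. Its log2 fold change was 0.14 (95% interval -0.10 to 0.38, limma adjusted p = 0.396). Probe set 1418084_PM_at read 7.41 and 7.29 in scramble and 7.63 and 7.64 in knockdown, a log2 fold change of 0.28 (95% interval 0.04 to 0.53, limma adjusted p = 0.117). Probe set 1448944_PM_at read 6.76 and 6.45 in scramble and 6.92 and 7.08 in knockdown, a log2 fold change of 0.40 (95% interval 0.08 to 0.72, limma adjusted p = 0.102). In limma with an intensity trend in the variance, the last 2 were called, with adjusted p-values of 0.0243 and 0.0274. Probe set 1448944_PM_at moved to 0.24 without scramble replicate 2 (limma adjusted p = 0.262) and to 0.55 without scramble replicate 1 (0.0393). The brightest moved to 0.09 after quantile normalization and without knockdown replicate 2, and the mean of the 3 probe sets was 0.27 (limma adjusted p = 0.0901). Whether the differences of Nrp1 and Nrp2 differ from each other was not tested.

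**Figure D3:**
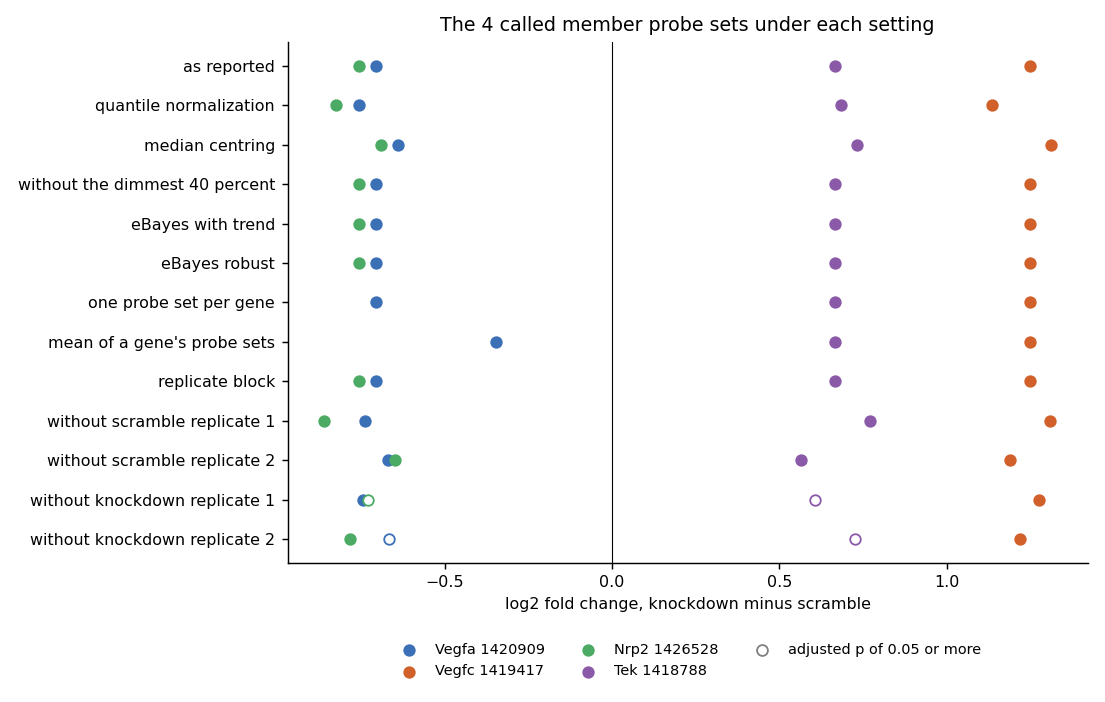
Log2 fold change, knockdown minus scramble (x axis), of the 4 called member probe sets under the reported fit and each alternative (y axis). Filled circles have a limma adjusted p under 0.05 and open circles do not, and Nrp2 has no value where the gene is represented by its other probe set or by the mean. No circle crosses 0, and the open ones all come from leaving out a knockdown array.

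Genes related to the members were then counted, each through its brightest probe set, for which 16.8% of 17097 genes were called, 10.6% higher and 6.24% lower, with a median log2 fold change of -0.04. Of 14 measured relatives (further VEGF and angiopoietin ligands, receptors and processing factors, and the platelet-derived growth factor family), 6 were higher and 8 not called. Their median log2 fold change was 0.16. Vegfd, the closest relative of Vegfc and a ligand of the same receptor, read log2 values of 6.54 and 6.55 in scramble and 7.72 and 7.64 in knockdown, 2.19-fold higher (limma adjusted p = 0.00131). Pdgfd, a ligand of the platelet-derived growth factor receptors, was 2.69-fold higher, and the receptor genes Pdgfra and Pdgfrb were 2.01-fold and 1.90-fold higher (limma adjusted p = 0.00104, 0.0028 and 0.00403). A dimmer probe set of Pdgfd lay at background, and averaging both lowered its log2 fold change from 1.43 to 0.84. Angpt2, which encodes the angiopoietin that mostly opposes Angpt1 at Tie2, read 4.27 and 3.90 in scramble and 5.02 and 4.79 in knockdown, 1.77-fold higher (limma adjusted p = 0.0157). Its adjusted p was 0.0902 without knockdown replicate 1, and its second probe set was at background on all 4 arrays, so that the mean of both gave a log2 fold change of 0.43. Pdgfc, the other called relative, was 1.59-fold higher (limma adjusted p = 0.018, and 0.115 without knockdown replicate 2). Flt4, which encodes VEGF receptor 3, the receptor of VEGF-C and VEGF-D, was not called, at mean log2 values of 3.23 in scramble and 2.99 in knockdown (limma adjusted p = 0.188).

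Of 13 genes for neuropilin partners, the class 3 semaphorins and plexins with the adaptor Gipc1, 4 were higher and 9 not called, and the median was 0.24. Sema3d, a semaphorin ligand, read log2 values of 2.87 and 2.73 in scramble and 4.58 and 4.81 in knockdown, 3.71-fold higher (limma adjusted p = 0.000552). Sema3c was 2.90-fold higher (limma adjusted p = 0.00101), while dimmer probe sets of Sema3c and Sema3d had log2 fold changes of 0.08 and 0.18. Averaging the probe sets of each gene lowered the log2 fold changes of Sema3c and Sema3d from 1.53 and 1.89 to 0.81 and 1.04, and both were still called. The plexin genes Plxna1 and Plxna2, which encode semaphorin receptors that pair with neuropilins, were 1.34-fold and 1.52-fold higher (limma adjusted p = 0.0344 and 0.0121). Without knockdown replicate 1 or replicate 2, only 2 of the 13 were called, Plxna1 having adjusted p-values of 0.187 and 0.16 and Plxna2 of 0.0907 and 0.0631. Further probe sets of Plxna2 had log2 fold changes of 0.60, 0.17 and 0.09, and their mean with the brightest was 0.37.

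Of 29 genes of VEGF receptor signalling, 2 were higher, 1 was lower and 26 not called, and the median was 0.07. Pik3r1, a regulatory subunit of PI3 kinase, was 1.74-fold higher (limma adjusted p = 0.00522), and Prkca, protein kinase C alpha, was 1.64-fold higher (limma adjusted p = 0.0159). Cdc42, a gene for a GTPase that controls the cytoskeleton, was 1.52-fold lower (limma adjusted p = 0.0224). Without knockdown replicate 2, Prkca and Cdc42 had limma adjusted p-values of 0.108 and 0.148, and Cdc42 had 0.0587 without scramble replicate 1. Further probe sets of Pik3r1 had log2 fold changes of 1.14, 1.93 and 0.41, and those of Prkca -0.10 and 0.07, so that the mean for Prkca was 0.22 and not called (limma adjusted p = 0.187).

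Genes known to control Vegfa went both ways, 3 higher, 3 lower and 10 not called of 16, with the median at -0.0003. Ppargc1b, a coactivator of oestrogen-related receptors, read log2 values of 9.59 and 9.53 in scramble and 8.75 and 8.70 in knockdown, 1.79-fold lower (limma adjusted p = 0.00335). Esrra, which encodes such a receptor, was 1.41-fold lower, and Cited2, a competitor of hypoxia-inducible factors for their coactivators, was 1.54-fold lower (limma adjusted p = 0.0209 and 0.0109). Hif1a, the regulated subunit of hypoxia-inducible factor 1, was 1.35-fold higher, Vhl, which targets that subunit for breakdown, 1.45-fold higher, and the coactivator gene Crebbp 2.44-fold higher (limma adjusted p = 0.0338, 0.0223 and 0.0131). At a second probe set of Hif1a, above background on 1 of 4 arrays, the log2 difference was -0.43 (limma adjusted p = 0.137). The second probe sets of Vhl and Cited2 had -0.08 and -0.03. Ppargc1b was the 1 gene of these 6 still called when knockdown replicate 1 or replicate 2 was left out. The limma adjusted p-values of the others then were 0.112 and 0.132 for Esrra, 0.0612 and 0.0853 for Cited2, 0.173 and 0.165 for Hif1a, 0.143 and 0.0775 for Vhl, and 0.0627 and 0.0511 for Crebbp.

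Of 23 measured genes induced by low oxygen, the setting in which Vegfa is best known to rise, 4 were higher and 19 not called, and the median was 0.13. The collagen crosslinking enzyme gene Lox and the collagen hydroxylase gene P4ha2 were 1.97-fold and 1.88-fold higher (limma adjusted p = 0.0023 and 0.00282). Bhlhe40, a transcription repressor gene, and Pdk1, a kinase gene of pyruvate dehydrogenase, were 1.45-fold and 1.41-fold higher (limma adjusted p = 0.0155 and 0.0246). In eBayes with a trend 8 were higher and 3 lower, and quantile normalization gave 4 and 2. A replicate block gave 5 and 1, leaving out the dimmest 40 percent 4 and 1, median centring 6 and 0, and the mean of a gene's probe sets 7 and 0. At an unadjusted limma p under 0.05 in the reported fit, 8 were higher and 5 lower, so the list went both ways. Further probe sets of Lox had log2 fold changes of 1.95 and 0.09, and those of Pdk1 0.61 and 0.28. The first of each pair was called (limma adjusted p = 0.000513 and 0.00985). Dimmer probe sets of Ero1a, at 0.55 and 0.80, were called higher (limma adjusted p = 0.0487 and 0.0223). For Higd1a, 0.56 was called and 0.42 was not (limma adjusted p = 0.0177 and 0.05). Without knockdown replicate 1 or replicate 2, 2 of the 23 were higher. Bhlhe40 then had limma adjusted p-values of 0.0918 and 0.107, and Pdk1 had 0.113 and 0.15, and 0.0637 without scramble replicate 1.

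**Figure D4:**
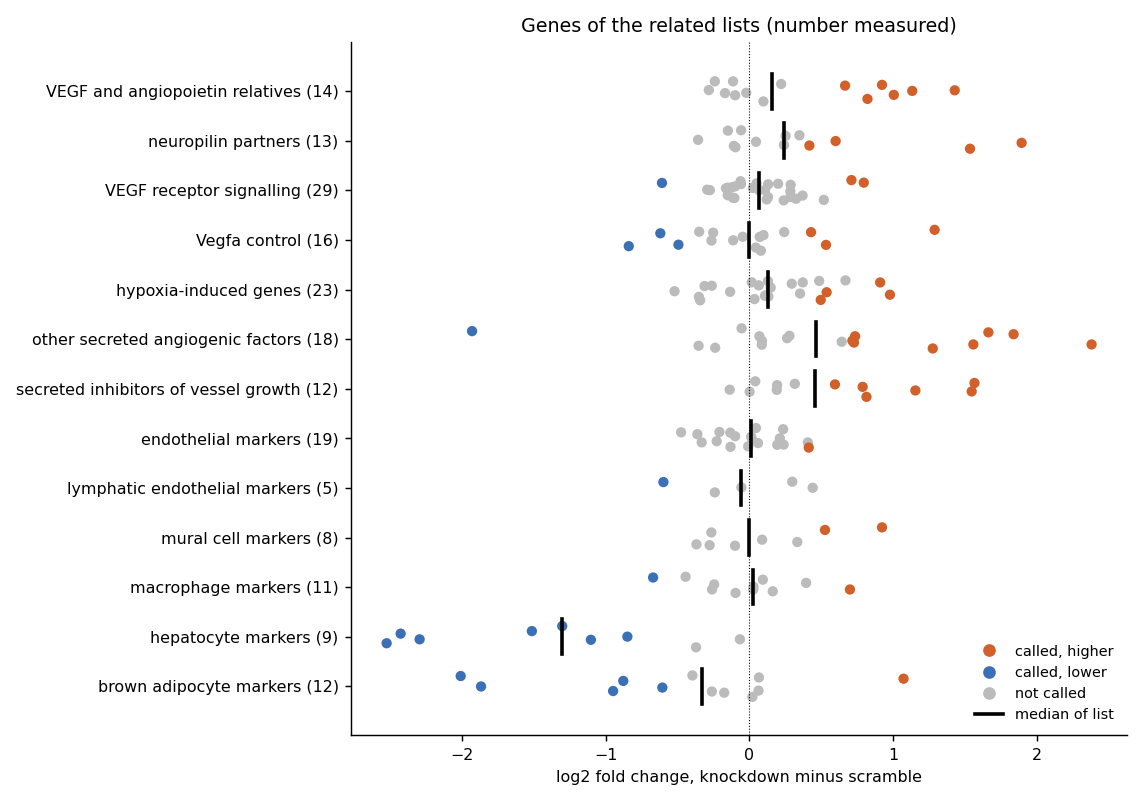
Log2 fold change, knockdown minus scramble (x axis), of each measured gene in the 13 related lists and marker lists (y axis, number measured in brackets). Orange and blue points were called higher and lower, grey points were not called, and black bars are list medians. The endothelial list has a median of 0.01 with 1 called gene, while the lists of other secreted factors have medians near 0.46.

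Other secreted factors with known effects on vessels were also counted. Of 18 factors that favour vessel growth, 8 were higher, 1 was lower and 9 not called, and the median was 0.46. Ccn3, a matricellular protein gene, was 5.21-fold higher, Ptn, which encodes the growth factor pleiotrophin, 3.57-fold, and Lep, the leptin gene, 3.17-fold (limma adjusted p = 0.00136, 0.000515 and 0.00335). Angptl4, an inhibitor of lipoprotein lipase, was the lower one, with log2 values of 9.56 and 9.55 in scramble and 7.75 and 7.51 in knockdown, 3.81-fold lower (limma adjusted p = 0.000513). Of 12 secreted inhibitors of vessel growth, 6 were higher and 6 not called, and the median was 0.46 here too. Thbs2, the thrombospondin 2 gene, was 2.96-fold higher, and the metalloproteinase inhibitor genes Timp3 and Timp2 were 2.92-fold and 2.23-fold higher (limma adjusted p = 0.000625, 0.000625 and 0.00183). Serpinf1, the gene of pigment epithelium-derived factor, was 1.76-fold higher by its brighter probe set and had a log2 fold change of -0.08 by its dimmer one.

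Markers of endothelial cells, which carry VEGF receptors, and of other cell types were also counted. Of 19 endothelial markers, 8 were at background in both groups and 7 were above it on all 4 arrays. Those at background included Cdh5 and Vwf, which encode VE-cadherin and von Willebrand factor, and Emcn and Tie1. By contrast, 2 dimmer probe sets of the marker Egfl7 were above background on all 4 arrays. Their log2 fold changes of -0.21 and 0.44 were not called (limma adjusted p = 0.239 and 0.0739). The summed linear signal of the 19, 2 to the power of each log2 value, was 184 and 165 in scramble and 180 and 185 in knockdown, so the groups overlapped. The 8 genes at background add to that sum, so the overlap cannot show whether endothelial signal differed. Eng, a coreceptor of transforming growth factor beta that other mesenchymal cells also express, was the 1 called member, 1.33-fold higher (limma adjusted p = 0.0405, 0.179 if knockdown replicate 1 is left out, 0.199 for knockdown replicate 2 and 0.1 for scramble replicate 1). With the mean of the probe sets of a gene, Eng was not called and Sox17 and Esam were lower, at -0.41 and -0.33 on the log2 scale (limma adjusted p = 0.0351 and 0.0499), although both probe sets of Sox17 were at background. Robo4, not called in the reported fit, went the other way without scramble replicate 1, at 0.54 on the log2 scale. Of 5 lymphatic endothelial markers, Reln alone was called, lower, reading 2.58 and 2.67 in scramble, barely above background, and 1.96 and 2.10 in knockdown, below it, so that no fold was measured, and the summed linear signal was 31.4 and 35.7 in scramble and 35.4 and 31.5 in knockdown. Of 8 mural cell markers 2 were higher, Pdgfrb and Acta2, which fibroblasts also express, while Kcnj8 was at background. The mural sum was 481 and 504 in scramble and 666 and 691 in knockdown, but it is weighted to its brightest genes. The median log2 fold change of the 8 was -0.005, and at an unadjusted limma p under 0.05, 2 were higher and 2 lower. A dimmer probe set of Acta2, at background, had a log2 fold change of -0.21 and was not called. Of 11 macrophage markers, Adgre1 was 1.62-fold higher and Tyrobp was lower, from above background on both scramble arrays to below it on both knockdown arrays, 5 were at background, and the sum was 75.9 and 80.2 against 79.98 and 79.83. Of 9 hepatocyte markers, 7 were lower, led by Alb, Serpina1c, Cyp2e1 and Apoa2, which were 5.74-fold, 5.37-fold, 4.90-fold and 2.85-fold lower (limma adjusted p = 0.027, 0.00127, 0.00153 and 0.00704, and 0.0718 for Alb without scramble replicate 1). Alb, Serpina1c and Cyp2e1 were above background on 1 of the 2 knockdown arrays. The sum of the 9 was 251 and 215 in scramble and 89.0 and 64.3 in knockdown. Of 12 brown adipocyte markers, 5 were lower, led by Cidea, Ucp1 and Dio2 at 4.02-fold, 3.64-fold and 1.93-fold lower, and 1, Elovl3, was 2.10-fold higher (limma adjusted p = 0.000416, 0.00133, 0.00811 and 0.00213, and 0.0572 for Dio2 without knockdown replicate 2), and their sum was 15400 and 15650 in scramble and 14880 and 14900 in knockdown. With knockdown replicate 1 or 2 left out, the limma adjusted p was 0.101 and 0.0603 for Reln, 0.0845 and 0.126 for Acta2, and 0.108 and 0.109 for Tyrobp, while that of Adgre1 was 0.101 without replicate 2. The brown adipocyte sum is weighted to its brightest genes, such as Fabp4 and Adipoq, so it says little of Ucp1. Only 2 of 5 lymphatic and 3 of 11 macrophage markers were above background on all 4 arrays. The sums of these 2 lists therefore hold background signal and cannot show whether such cells differed. The part of the mural, hepatocyte and brown adipocyte differences in the results on the members was not tested.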

How the data were processed

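Affymetrix mouse arrays gave the expression of 4 RNA samples. The values are log2 expression values deposited by the authors, 1 per probe set and array, from 1.05 to 12.36. They were made with affy, RMA and limma, per the submitters' processing notes, which give no versions, while details of the normalization are not given in the sources used here. The number of arrays limits the precision.

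Of 45141 probe sets, 104 controls were left out. Of the other 45037, the platform annotation gives 1 symbol for 28898, several for 551 and none for 15588. Of the 28898, 28689 were found in RefSeq by Entrez ID and 0 symbols changed. Promoter sequences are from RefSeq (GRCm38.p6).

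The test was limma 3.58.1 in R 4.3.3 (lmFit, eBayes, group only, two-sided, adjusted over all 45037, threshold 0.05, residual degrees of freedom 2, prior 4.93), tested on simulated data. Same-numbered replicates were compared by the correlation of their deviations. The members and lists were chosen with earlier results of these data known. From each list up to 4 called genes with the largest change are named, or all where 5 or fewer were called. Examples are given in the text, and Flt4, Angpt2, Pdgfc, Esrra, Hif1a, Sox17, Esam, Robo4 and Egfl7 were added after their values were seen, as were the background genes of marker lists. Listed genes absent from the annotation were not analysed here. The alternatives were quantile normalization, median centring, leaving out the dimmest 40 percent, eBayes with a trend or robust, 1 probe set per gene, the mean of a gene's probe sets, a replicate block and leaving out each array.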

Additional observations from a re-analysis of the deposited data

How the results depend on the processing

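With 1 array of a group left out, the remaining one is taken to vary as the other group does. The number of member probe sets called higher, 2 as reported, was 4 in eBayes with a trend and ranged from 1 to 3 over the 4 fits that each left out an array. The number called lower, also 2, was 1 with 1 probe set per gene, where Nrp2 is represented by its other probe set, and ranged from 1 to 2 over the same 4 fits. Without an array, all probe sets called higher ranged from 1486 to 3512 and those called lower from 439 to 2558, the lowest being without knockdown replicate 2, and 1906 and 617 without knockdown replicate 1. With the replicate number as a block, 3 member probe sets were higher and 3 lower, and over all probe sets 4009 were higher and 2499 lower. The deviations of same-numbered arrays correlated at r = 0.04 over all probe sets. With 2 arrays per group this cannot tell whether same-numbered arrays shared a culture or a batch. The signs that turned were all of probe sets not called. After quantile normalization the log2 fold change was -0.12 for the dimmer probe set of Vegfa, -0.030 for Vegfb and 0.043 for Angpt1, and after median centring 0.036 for Angpt1. Leaving out an array gave -0.15 to 0.17 for the dimmer probe set of Vegfa, -0.079 to 0.20 for Vegfb, -0.0006 to 0.036 for Pgf, -0.48 to 0.052 for Flt1 1454037_PM_a_at and -0.087 to 0.029 for Angpt1. Of the related genes named, calls that ended under a change of scaling or of probe sets were those of Plxna1, Vhl and Eng after quantile normalization (adjusted p = 0.12, 0.085 and 0.142), of Hif1a likewise (0.0525), and of Plxna1, Prkca, Cdc42, Vhl, Hif1a, Eng and Acta2 with the mean of a gene's probe sets (0.194, 0.187, 0.0646, 0.0985, 0.994, 0.122 and 0.241). The cause was not tested. Genes near background, such as Tek, Flt1 and Kdr, are limited by signal.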
